A study of Mus musculus with 16 samples.

Results

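The genes described here are 10 genes of MHC class I antigen presentation: the heavy chains H2-K1 and H2-D1, the light chain B2m, the peptide transporter genes Tap1 and Tap2, the loading factor Tapbp, the immunoproteasome subunits Psmb8, Psmb9 and Psmb10, and the transactivator Nlrc5. They were taken by symbol from the table of TPM values (transcript abundance scaled by gene length and by the library's total) and are 10 of its 51179 genes, and all 10 passed the filter of at least 1 TPM in at least 5 libraries. RNA came from peripheral blood mononuclear cells (PBMCs) of C57BL/6N mice in a model of heart failure with preserved ejection fraction, a syndrome in which the heart fills poorly although it still contracts. Mice in the HFD+L-NAME+NO2-OA group (6 libraries) received a high-fat diet with L-NAME, an inhibitor of nitric oxide synthases, for 15 weeks. In the last 4 weeks they also received nitro-oleic acid (NO2-OA), an electrophilic fatty acid. The HFD+L-NAME group (5 libraries) received the same 15-week regimen without NO2-OA, and the chow group (5 libraries) ate regular chow. The labels do not say that each library is a different mouse or whether mice were pooled. The p-values therefore set group differences against the spread between these libraries, which may not be that between mice. The comparisons ask how the regimen, and NO2-OA given on top of it, differ from their controls in this pathway.

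MHC class I molecules show peptides from inside the cell to CD8 T cells. The proteasome cuts proteins into peptides, the transporter Tap1-Tap2 carries them into the endoplasmic reticulum, Tapbp (tapasin) holds the transporter to empty class I molecules, and a heavy chain folds with B2m and the peptide before it leaves for the surface. Interferon gamma induces these genes in many cells, replaces the catalytic proteasome subunits Psmb5, Psmb6 and Psmb7 with Psmb8, Psmb9 and Psmb10, and induces Nlrc5, which acts on the promoters of class I genes. In blood, lymphocytes express class I at high levels, and platelets also carry class I molecules.

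The promoters are shown first because these 10 genes are known to share regulators and because neighbouring genes can be read beside each other. RefSeq promoter windows (GRCm38.p6, 250 bases before to 50 after the start of each gene) were found for 8 of the 10 genes, and Tap2 and Nlrc5 had no entry in the table. The sequences below run 5′ to 3′ in each gene's own direction and end 20 bases after the start. Capitals mark matches to GAAANNGAAA on either strand (core of the interferon-stimulated response element, ISRE), TTCNNNGAA (interferon gamma-activated site, GAS) and CCAAT on either strand (ATTGG on the reverse).
H2-K1 (chr17:34000328-34000597, minus strand): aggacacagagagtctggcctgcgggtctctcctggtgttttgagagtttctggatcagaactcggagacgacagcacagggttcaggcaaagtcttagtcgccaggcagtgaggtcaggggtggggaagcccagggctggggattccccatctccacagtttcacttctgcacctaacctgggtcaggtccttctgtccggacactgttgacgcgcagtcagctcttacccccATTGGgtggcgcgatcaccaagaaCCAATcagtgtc
H2-D1 (chr17:35262844-35263113, plus strand): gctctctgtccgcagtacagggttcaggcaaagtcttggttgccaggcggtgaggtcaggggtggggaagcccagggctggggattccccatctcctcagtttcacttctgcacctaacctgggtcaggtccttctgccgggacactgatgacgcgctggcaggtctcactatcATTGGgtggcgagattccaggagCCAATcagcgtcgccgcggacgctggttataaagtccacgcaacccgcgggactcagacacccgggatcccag
B2m (chr2:122147437-122147706, plus strand): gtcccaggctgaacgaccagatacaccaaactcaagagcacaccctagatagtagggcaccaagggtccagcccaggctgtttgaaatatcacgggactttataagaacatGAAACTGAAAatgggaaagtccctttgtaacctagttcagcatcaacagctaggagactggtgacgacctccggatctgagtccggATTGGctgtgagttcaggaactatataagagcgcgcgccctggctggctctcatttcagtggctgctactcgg
Tap1 (chr17:34187306-34187575, plus strand): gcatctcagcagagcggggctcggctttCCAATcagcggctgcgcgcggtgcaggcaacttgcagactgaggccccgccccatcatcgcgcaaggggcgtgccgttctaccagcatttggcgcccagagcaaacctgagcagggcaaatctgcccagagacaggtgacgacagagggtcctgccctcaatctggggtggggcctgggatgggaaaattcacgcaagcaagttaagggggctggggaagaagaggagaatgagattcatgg
Psmb8 (chr17:34197945-34198214, plus strand): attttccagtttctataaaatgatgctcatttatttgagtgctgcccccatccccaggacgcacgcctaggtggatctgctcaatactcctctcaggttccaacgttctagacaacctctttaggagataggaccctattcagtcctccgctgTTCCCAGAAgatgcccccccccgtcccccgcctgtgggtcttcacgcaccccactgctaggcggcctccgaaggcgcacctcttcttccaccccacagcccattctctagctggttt

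The ISRE core was found for 1 of the 8 genes, B2m, and in 3.44% of all 32851 promoter windows of the table. The GAS letters were found for 1 of the 8 genes, Psmb8, and in 8.30% of all windows. A CCAAT box was found in 6 of 8 (H2-K1, H2-D1, B2m, Tap1, Tapbp and Psmb9), against 37.4% of all windows. In both heavy chain promoters a reverse CCAAT lay upstream of a forward one, but their places counted from the annotated start differed. They began at -76 and -53 from the start in H2-D1 and at -16 and 9 in the printed H2-K1 window. H2-K1, counted once, had a second window with another start, not printed, where they began at -30 and -6. Such matches are descriptions of the letters in these windows only. Only exact matches were counted, so windows without a match, those of H2-K1 and H2-D1 for the ISRE among them, may hold variants of these elements. The windows of Tap1 and Psmb9 overlap by 275 bases on opposite strands, so the CCAAT marked for Tap1 is also the one counted for Psmb9. In the RefSeq gene order of chromosome 17, Psmb9, Tap1, Psmb8 and Tap2 are consecutive protein-coding genes. Of the 10 genes, 7 are on chromosome 17, B2m is on chromosome 2, and Psmb10 and Nlrc5 are on chromosome 8 in the GENCODE annotation.

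The libraries differed widely in ways that bear on these genes. Whole reads recovered from the TPM steps numbered 4940252 to 25477492 per library. Protein-coding genes held 15.1% to 56.4% of TPM, haemoglobin genes held 0.141% to 30.7%, and 3 libraries were under 25% protein-coding TPM (HFD+L-NAME+NO2-OA 2, HFD+L-NAME 5 and chow 3). The library numbers in the labels form a lower run of 11 libraries (run 1) and a higher run of 5 (run 2). Run 2 held 1 HFD+L-NAME+NO2-OA library (number 2) and 2 libraries of each other group. Both comparisons with NO2-OA are thus unbalanced by run. Prg4, a gene of peritoneal macrophages, reached at least 10 TPM in 4 libraries, all of run 2 (HFD+L-NAME 1 and 5, chow 1 and 2). Every listed marker of T, NK and B cells, monocytes and neutrophils was above 0 in all 16 libraries. The summed TPM of 5 platelet markers ranged from 303 to 19422 in HFD+L-NAME+NO2-OA, from 1400.3 to 30203 in HFD+L-NAME and from 1628 to 17539.7 in chow. In bulk RNA, fewer cells of a type and less RNA per cell cannot be told apart.

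The 10 genes spanned a wide range of levels in the same order in most libraries. TPM divides reads by a gene length, so levels were set side by side. The lengths used are not given, and the order depends on them. Over all 16 libraries B2m (ENSMUSG00000060802) averaged 4459.8 TPM, H2-D1 (ENSMUSG00000073411) 768 TPM and H2-K1 (ENSMUSG00000061232) 467 TPM, all above the 99th percentile of tested genes. Tapbp (ENSMUSG00000024308) followed at 67.3 TPM, then Tap1 (ENSMUSG00000037321) at 29.4, Nlrc5 (ENSMUSG00000074151) at 28.1 and Tap2 (ENSMUSG00000024339) at 27.3 TPM. The immunoproteasome genes were lowest, with Psmb8 (ENSMUSG00000024338) at 19.4, Psmb10 (ENSMUSG00000031897) at 15.9 and Psmb9 (ENSMUSG00000096727) at 8.25 TPM. Each gene exceeded the next in at least 15 of 16 libraries, except Tap1 over Nlrc5 (11 of 16) and Nlrc5 over Tap2 (9 of 16), whose within-library differences were smaller than their spread. The recovered reads behind a value ranged from 60 to 599 for Psmb9 and from 4604 to 77087 for B2m. Psmb9 had a median of 247.5 recovered reads and Psmb10 of 198.5, although Psmb9 had the lower TPM, so their order rests on the lengths. Of the 150-base stretches of the H2-D1 transcripts, 1.35% occur in a transcript of another gene, and none of those of the other 9 genes do, while 12.8% of the 50-base stretches of H2-D1 and 9.63% of those of H2-K1 do. Levels of the 2 heavy chains are therefore uncertain, and the size of that error was not measured.

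**Figure D1:**
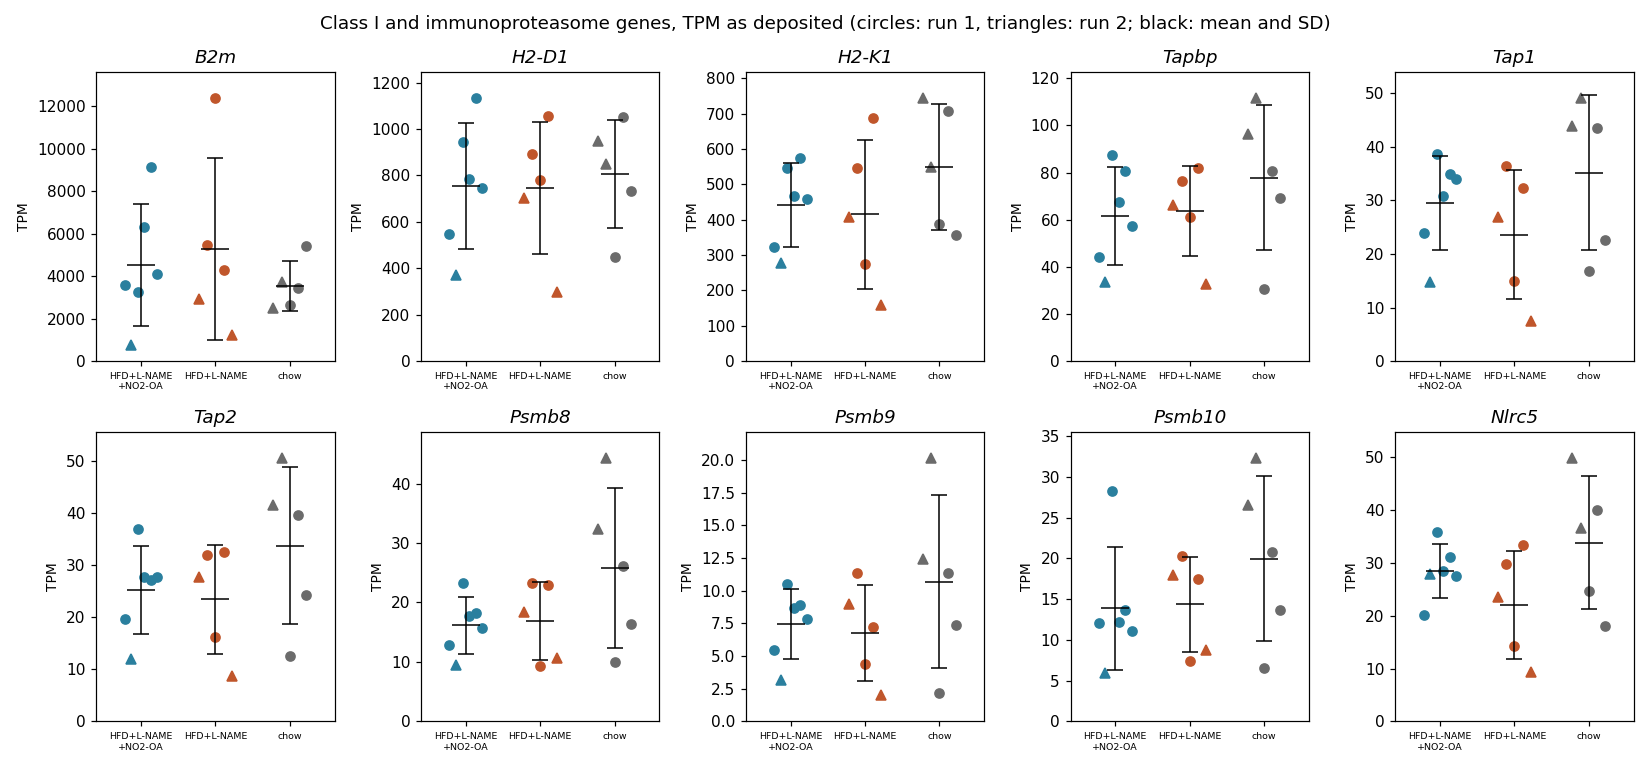
TPM of each of the 10 genes in the 16 libraries by group, with circles for run 1, triangles for run 2 and black bars for the mean and SD; each vertical axis starts at 0. The groups overlap for every gene, and the highest B2m value is the HFD+L-NAME library at 12387 TPM.

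The heavy chains, transporter, immunoproteasome and Nlrc5 had lower mean TPM in HFD+L-NAME than in chow libraries, B2m a higher mean, and no gene differed beyond the spread between libraries. H2-K1 had 407, 546, 274, 687 and 160.3 TPM in the 5 HFD+L-NAME libraries, against 744, 549, 387, 709 and 357 TPM in the 5 chow libraries. Its mean was 415 ± 209.8 TPM in HFD+L-NAME and 549 ± 178 TPM in chow (SD, n = 5 each). The groups overlapped, with the lowest value in HFD+L-NAME library 5 and the highest in chow library 1. H2-D1, the second classical heavy chain of this strain, averaged 746 ± 283 TPM in HFD+L-NAME and 807 ± 232 TPM in chow.

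B2m had 2931, 5488, 12387, 4305 and 1256 TPM in HFD+L-NAME libraries, against 2507, 3729, 2652, 3451 and 5443 TPM in chow libraries. A single HFD+L-NAME library, number 3, lay above all others and another, number 5, below all 5 chow libraries. The log2 difference of B2m was 0.24 ± 0.63 (SE), -0.16 without HFD+L-NAME library 3 and 0.66 without HFD+L-NAME library 5.

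Tap1 had 26.9, 36.3, 15.0, 32.3 and 7.44 TPM in HFD+L-NAME libraries, against 43.8, 49.0, 16.8, 43.5 and 22.5 TPM in chow libraries. Nlrc5, the class I transactivator, had 23.4, 29.8, 14.3, 33.4 and 9.30 TPM in HFD+L-NAME libraries, against 49.8, 36.5, 24.6, 40.1 and 18.03 TPM in chow libraries. For both genes 3 chow libraries exceeded all 5 HFD+L-NAME libraries, and 2 lay among them. Psmb8 had 18.4, 23.2, 9.30, 22.95 and 10.7 TPM in HFD+L-NAME libraries, against 32.4, 44.2, 9.96, 26.2 and 16.4 TPM in chow libraries. Psmb8 was lowest in HFD+L-NAME library 3 and highest in chow library 2, and the groups overlapped. Tap2 averaged 23.4 ± 10.5 TPM in HFD+L-NAME and 33.7 ± 15.1 TPM in chow. Tapbp averaged 63.7 ± 19.2 TPM in HFD+L-NAME and 77.7 ± 30.8 TPM in chow. Among the other immunoproteasome subunits, Psmb9 averaged 6.80 ± 3.67 TPM in HFD+L-NAME and 10.7 ± 6.63 TPM in chow, and Psmb10 averaged 14.4 ± 5.84 TPM in HFD+L-NAME and 19.99 ± 10.2 TPM in chow.

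In the limma fit of log2(TPM + 1) over all 16 libraries, 0 of the 10 genes passed an adjusted p of 0.05, 0 had an unadjusted p below it, and limma-voom on the recovered reads also called 0 and had 0 below an unadjusted 0.05. The share called among all 16365 tested genes was 0.00611%, and 2.93% had an unadjusted p below 0.05. Adjusted p-values of the 10 ran from 0.816 to 0.890. The largest differences were those of Nlrc5 (-0.65 ± 0.39, 95% interval -1.44 to 0.15) and Tap1 (-0.63 ± 0.43, interval -1.52 to 0.26). Without HFD+L-NAME library 5 they were -0.39 for Nlrc5 and -0.29 for Tap1. The differences of 9 of the 10 genes were below 0 with a median of -0.50, beside 82.1% of all tested genes below 0 with a median of -0.29. Rescaling each library by the median of ratios across genes moved the median of all genes to 0.03, and left 6 of the 10 below 0 with a median of -0.11, beside 44.9% of all genes below 0. None of the 10 had an unadjusted p below 0.05 on that scale, beside 3.97% of all genes. On that scale Nlrc5 differed by -0.25 (interval -0.64 to 0.13), Tap1 by -0.24 (-0.56 to 0.07) and B2m by 0.65 (-0.67 to 1.98), while H2-D1, Tapbp and Psmb10 turned to differences above 0. Rescaling by the protein-coding total instead left 9 of the 10 below 0 with a median of -0.48, beside 81.1% of all genes below 0. Within run 1 (3 libraries each), 9 of the 10 genes were above 0 with a median of 0.14, beside a median of 0.13 over all genes, and Nlrc5 was the exception at -0.10. The same 6 libraries remain when those with Prg4 are left out. Run 2 alone holds 2 libraries of each of these groups and was not fitted.

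Markers of T and NK cells had median differences further below 0 than that of the 10 genes (-0.50) in the same comparison. All 7 T cell markers were below 0 with a median of -1.04, and 6 had an unadjusted p below 0.05 (Cd3g -1.25, Trac -1.19). All 6 NK cell markers were below 0 with a median of -1.10, each with an unadjusted p below 0.05 (Gzma -1.62, Klrd1 -1.20), and limma called 0 of the 13 after adjustment. After median-of-ratios rescaling the median was -0.64 for the T cell markers (6 of 7 below an unadjusted 0.05) and -0.76 for the NK cell markers (4 of 6). Within run 1 it was -0.37 for the T cell and -0.45 for the NK cell markers, with none below an unadjusted 0.05. The NK cell sum ranged from 21.3 to 152 TPM (median 61.7) in HFD+L-NAME and from 68.9 to 238 TPM (median 144) in chow libraries, and the T cell sum from 124 to 439 TPM (median 161) in HFD+L-NAME and from 208 to 561.7 TPM (median 447) in chow libraries. Their part in the differences of the 10 genes was not tested.

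**Figure D2:**
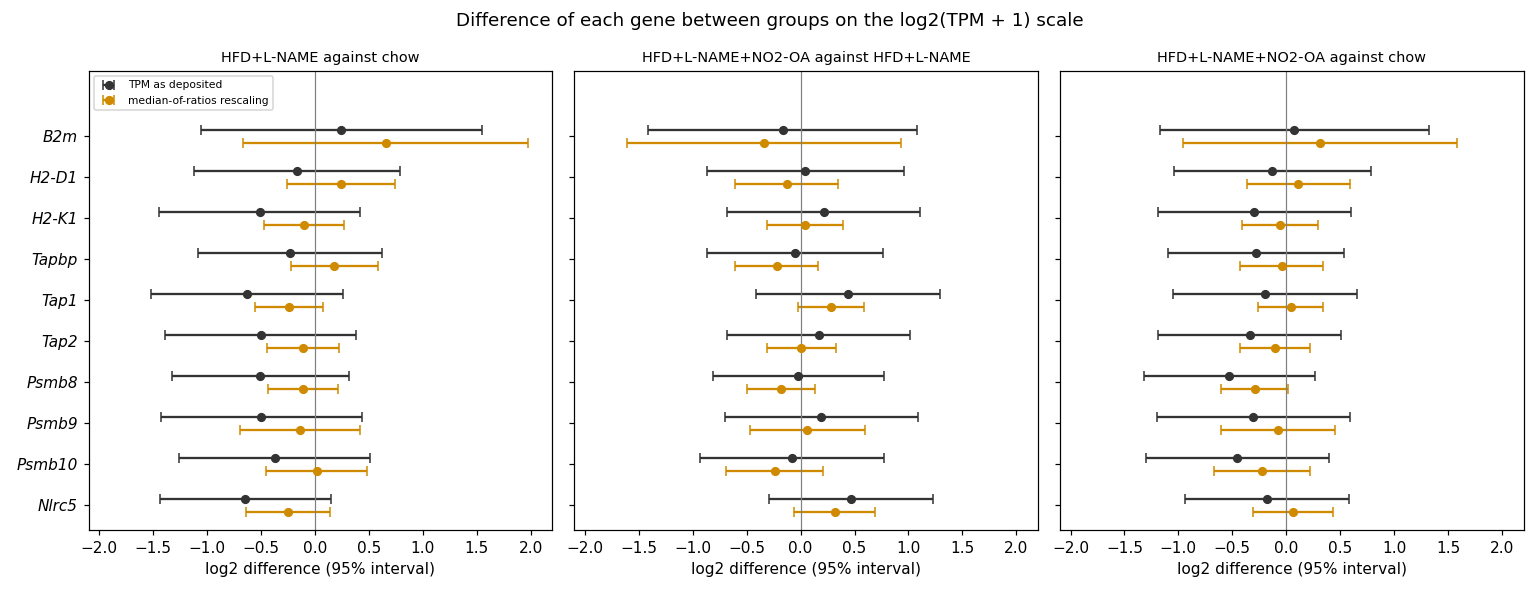
Log2 differences of the 10 genes with 95% intervals in the 3 comparisons, from the deposited TPM (dark) and after median-of-ratios rescaling (orange). Every interval includes 0, and the rescaled intervals are narrower for each gene except B2m.

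Nlrc5 and Tap1 showed the largest positive differences with NO2-OA, and no gene passed the test. Nlrc5 had a lowest, median and highest value of 20.1, 28.2 and 35.8 TPM in 6 HFD+L-NAME+NO2-OA libraries, against 9.30, 14.3, 23.4, 29.8 and 33.4 TPM in HFD+L-NAME libraries. The groups overlapped, and 2 HFD+L-NAME libraries lay below all with NO2-OA. Its mean was 28.5 ± 5.13 TPM in HFD+L-NAME+NO2-OA (n = 6) and 22.04 ± 10.2 TPM in HFD+L-NAME (n = 5), a log2 difference of 0.47 ± 0.37 (SE, 95% interval -0.29 to 1.23). Leaving out each library gave Nlrc5 differences of 0.21 (without HFD+L-NAME library 5) to 0.65.

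Tap1 had a lowest, median and highest value of 14.8, 32.4 and 38.6 TPM in HFD+L-NAME+NO2-OA, against 7.44, 26.9 and 36.3 TPM in HFD+L-NAME libraries, with a log2 difference of 0.44 ± 0.41. Without HFD+L-NAME library 5 the difference of Tap1 was 0.10. Tap2, its partner in the transporter, had 12.1, 27.4 and 36.8 TPM in HFD+L-NAME+NO2-OA, against 8.81, 27.8 and 32.5 TPM in HFD+L-NAME libraries, with a difference of 0.17 ± 0.41. B2m averaged 4535 ± 2868 TPM with NO2-OA and 5273 ± 4278 TPM without (-0.17 ± 0.61). Without HFD+L-NAME+NO2-OA library 2, in which B2m was 775 TPM, the difference of B2m was 0.27, and without HFD+L-NAME library 5 it was -0.59.

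The other differences were 0.22 for H2-K1, 0.19 for Psmb9, 0.04 for H2-D1, -0.02 for Psmb8, -0.05 for Tapbp and -0.08 for Psmb10. With limma 0 of 10 passed and 0 had an unadjusted p below 0.05, as with limma-voom. The share called over all genes was 0.00611%, with 0.947% at an unadjusted p below 0.05, and the adjusted p of each of the 10 was 1.00. The 10 had a median of 0.10, with 4 below 0, beside 35.3% of all genes below 0 and a median of 0.08. After median-of-ratios rescaling Nlrc5 differed by 0.31 (interval -0.06 to 0.69) and Tap1 by 0.28 (-0.02 to 0.59). On that scale 5 of the 10 were below 0, beside 57.4% of all genes, and none had an unadjusted p below 0.05. Within run 1 the 10 differences ran from -0.44 for B2m to 0.29 for Tap1, with a median of 0.03. The 6 NK cell markers were all above 0 in this comparison with a median of 0.52, and 6 of 7 T cell markers with a median of 0.37, none with an unadjusted p below 0.05. Within run 1 the median was -0.04 for the NK cell and 0.02 for the T cell markers, and their part in the differences of the 10 genes was not tested.

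With NO2-OA, 9 of the 10 genes were again lower on average than in chow, and B2m was the exception. Psmb8, the immunoproteasome subunit in place of Psmb5, showed the largest difference. It averaged 16.2 ± 4.78 TPM (lowest 9.45, highest 23.3, n = 6) in HFD+L-NAME+NO2-OA and 25.8 ± 13.4 TPM (n = 5) in chow. The log2 difference of Psmb8 was -0.53 ± 0.38 (SE, 95% interval -1.32 to 0.26) and -0.29 (interval -0.61 to 0.02) after median-of-ratios rescaling. It was -0.30 without chow library 2 and -0.81 without chow library 3. Psmb10 averaged 13.9 ± 7.52 TPM in HFD+L-NAME+NO2-OA and 19.99 ± 10.2 TPM in chow (-0.45 ± 0.41), and Psmb9 averaged 7.42 ± 2.68 TPM in HFD+L-NAME+NO2-OA and 10.7 ± 6.63 TPM in chow (-0.30 ± 0.43).

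H2-K1 averaged 442 ± 119 TPM in HFD+L-NAME+NO2-OA and 549 ± 178 TPM in chow (-0.30 ± 0.43). H2-D1 averaged 754 ± 272 TPM in HFD+L-NAME+NO2-OA and 807 ± 232 TPM in chow (-0.13 ± 0.44). The other differences were -0.34 for Tap2, -0.28 for Tapbp, -0.19 for Tap1, -0.17 for Nlrc5 and 0.07 for B2m. Limma called 0 of 10, with 0 at an unadjusted p below 0.05, as did limma-voom, beside 0% called over all genes and 2.8% at an unadjusted p below 0.05. Adjusted p-values ran from 0.977 to 0.989. The median of the 10 was -0.29 beside -0.20 over all genes, of which 82.7% were below 0. After median-of-ratios rescaling 6 of the 10 were below 0, beside 51.3% of all genes, and none had an unadjusted p below 0.05, beside 3.69%. After protein-coding rescaling all 10 were below 0 with a median of -0.39, beside 88.6% of all genes below 0. All 7 T cell markers (median -0.67) and all 6 NK cell markers (median -0.62) were below 0 here too. Within run 1 all 10 members of the pathway were above 0, between 0.01 and 0.41, beside a median of 0.12 over all genes. These 3 comparisons share groups, so the values of 1 comparison are not independent of the others.

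A ratio of genes within a library does not change when the whole library is rescaled. The balance of immunoproteasome and constitutive subunit RNA was read from Psmb8/Psmb5, Psmb9/Psmb6 and Psmb10/Psmb7. That of the transporter was read from Tap1/Tap2 and that of the heavy chains from H2-D1/H2-K1. Ratios of RNA over a mix of cells do not measure the exchange of subunits within a cell. The level of a ratio depends on the gene lengths used, while its log2 differences between groups do not. The ratio Psmb8/Psmb5 averaged 0.762 ± 0.209 in HFD+L-NAME+NO2-OA, 0.795 ± 0.379 in HFD+L-NAME and 0.968 ± 0.270 in chow (SD). Psmb9/Psmb6 averaged 0.432 ± 0.0955 in HFD+L-NAME+NO2-OA, 0.388 ± 0.199 in HFD+L-NAME and 0.417 ± 0.204 in chow. Psmb10/Psmb7 averaged 0.917 ± 0.366 in HFD+L-NAME+NO2-OA, 1.01 ± 0.394 in HFD+L-NAME and 1.03 ± 0.476 in chow. The 3 groups overlapped in each, and exact two-sided permutation p-values of the 9 comparisons ran from 0.212 to 0.984.

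The ratio Tap1/Tap2 had its highest mean with NO2-OA. It was 1.22, 1.23, 1.05, 1.11, 1.29 and 1.23 in HFD+L-NAME+NO2-OA libraries, against 0.967, 1.14, 0.930, 0.994 and 0.845 in HFD+L-NAME libraries. Of the 6 libraries with NO2-OA, 4 lay above all 5 without it. The log2 difference was 0.29, with an exact two-sided permutation p of 0.0108 (smallest possible 0.00216) and p = 0.162 adjusted over the 15 ratio comparisons, so the correction was not passed. The difference was between 0.24 and 0.34 when each library was left out, 0.23 without the 3 libraries under 25% protein-coding TPM and 0.21 within run 1. Against chow, where Tap1/Tap2 averaged 1.08 ± 0.157, the exact permutation p was 0.154 for HFD+L-NAME+NO2-OA and 0.270 for HFD+L-NAME.

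H2-D1/H2-K1 was 1.72, 1.63, 2.85, 1.54 and 1.87 in HFD+L-NAME libraries, against 1.28, 1.55, 1.16, 1.48 and 2.05 in chow libraries. The highest ratio was again in HFD+L-NAME library 3, and the log2 difference of 0.34 had an exact permutation p of 0.143, smallest possible 0.00794. With NO2-OA the ratio averaged 1.67 ± 0.201. H2-D1 exceeded H2-K1 in all 16 libraries.

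**Figure D3:**
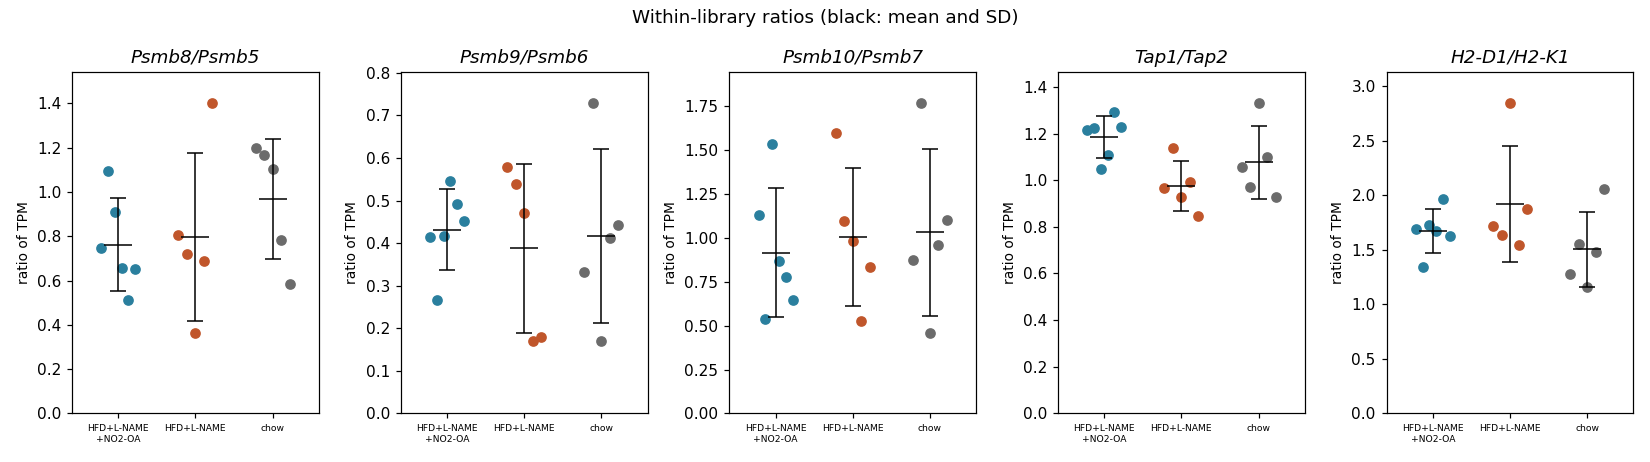
Within-library ratios of TPM by group, with points for libraries, black bars for the mean and SD and axes from 0. Tap1/Tap2 averages 1.19 in HFD+L-NAME+NO2-OA and 0.975 in HFD+L-NAME, and the groups overlap in all 5 ratios.

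On the deposited scale 9 of the 10 genes moved together over the 16 libraries and B2m stood apart. The 36 pairs without B2m had a median Pearson r of 0.87 (0.64 to 0.97), and the 9 pairs with B2m a median of 0.37 (0.04 to 0.69). These are descriptions, since all values of a library share its depth and composition. After median-of-ratios rescaling the median over the 36 pairs was 0.18 (-0.54 to 0.89), with 14 pairs below 0. After rescaling by the protein-coding total it was 0.78 (0.49 to 0.94), with none of the 36 below 0. The 9 pairs with B2m had a median of 0.12 (-0.36 to 0.85) after median-of-ratios rescaling, the highest being B2m with H2-D1, and of -0.43 after protein-coding rescaling, with all 9 below 0. Ranked by the lowest r over the 3 scalings, the leading pairs were Tap2 with Psmb9 (0.97 deposited, 0.89 rescaled by median of ratios and 0.91 rescaled by the protein-coding total), Psmb8 with Psmb10 (0.95, 0.80 and 0.93) and Tap1 with Tap2 (0.97, 0.70 and 0.93). Tap1 and Psmb9, whose promoter windows overlap, had 0.92, 0.65 and 0.82. H2-K1 and Nlrc5 had 0.92, 0.64 and 0.94, whereas H2-D1 and Nlrc5 had 0.67, -0.12 and 0.73. After median-of-ratios rescaling Nlrc5 had r = 0.22 with Tap1. With the remaining genes it was below 0 on that scale, from -0.45 (Psmb10) to -0.12 (H2-D1), and -0.36 with B2m.

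Median-of-ratios rescaling reduced the spread of the genes other than B2m. The SD of log2(TPM + 1) over 16 libraries was 0.59 for H2-K1 as deposited and 0.20 rescaled, beside medians of 0.57 and 0.35 over all tested genes. For B2m it was 0.97 on both scales. After protein-coding rescaling it was 0.53 for H2-K1 and 0.63 for B2m, beside a median of 0.54. B2m ranged from 775 to 12387 TPM as deposited, a 16.0-fold range, and 17.7-fold rescaled, against 4.64-fold and 1.62-fold for H2-K1. On the protein-coding scale B2m ranged 5.10-fold and H2-K1 3.46-fold, and Nlrc5 (6.09-fold), Psmb8 (5.70), Psmb9 (5.48) and Psmb10 (5.21) ranged more widely than B2m. Its ratio to H2-K1 was lowest at 2.80 in HFD+L-NAME+NO2-OA library 2 and highest at 45.3 in HFD+L-NAME library 3.

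**Figure D4:**
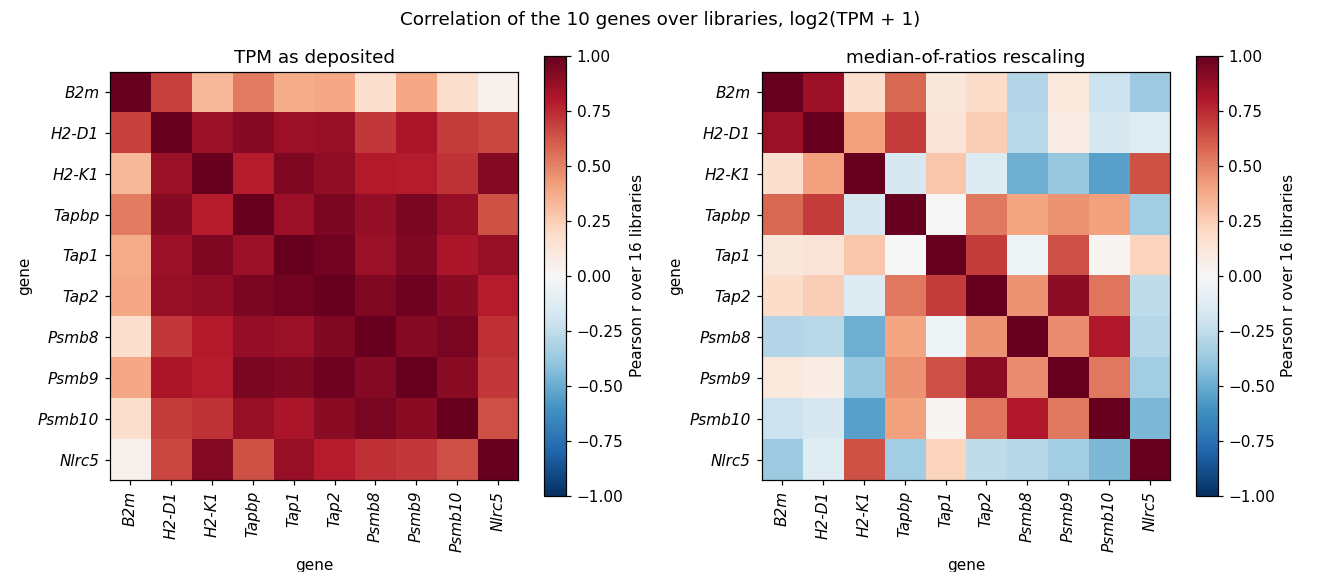
Pearson r between the 10 genes over 16 libraries on the log2(TPM + 1) scale, as deposited (left) and after median-of-ratios rescaling (right), in color from -1 to 1. The 36 pairs without B2m lie between 0.64 and 0.97 on the left, and 14 of them are below 0 on the right.

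The level of B2m followed the platelet markers, and those of Psmb8 and Psmb10 the B cell markers. Each gene was set against the summed level of 8 marker lists over 16 libraries, 80 relations on each of 3 scalings, with permutation p-values adjusted over the 80. This family was chosen after the values were seen. A relation was counted when both Pearson's r and Spearman's rho were past an adjusted 0.05. On the deposited scale 26 relations held, with 4 after median-of-ratios rescaling, 22 after protein-coding rescaling and 3 on every scaling. The share of all tested genes that would pass against the same marker sums was not counted. All values of a library share its composition, so the counts cannot show whether these genes follow the markers more than other genes do.

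The summed platelet markers (Ppbp, Pf4, Itga2b, Gp9 and Gp1bb) and B2m had r = 0.96 and rho = 0.93 as deposited (permutation p = 1e-05 for each, the smallest the permutations can give, adjusted p = 0.00016 and 0.000133). After median-of-ratios rescaling r was 0.95 and after protein-coding rescaling 0.91. Without the 2 libraries farthest from the median of the platelet sum r was 0.91 as deposited, and within the 11 libraries of run 1 it was 0.92. The library with the most platelet RNA, HFD+L-NAME 3 with a sum of 30203 TPM, had the highest B2m, and HFD+L-NAME+NO2-OA 2 with 303 TPM the lowest. The part of platelet RNA in the B2m differences between groups was not tested.

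Psmb10 and 5 B cell markers (Cd79a, Cd79b, Ms4a1, Pax5 and Cd22) had r = 0.96 and rho = 0.97 as deposited, with r = 0.85 after median-of-ratios and 0.95 after protein-coding rescaling. Psmb8 had r = 0.95 and rho = 0.97 as deposited, with r = 0.74 after median-of-ratios and 0.92 after protein-coding rescaling. Permutation adjusted p-values of these r ran from 0.00016 to 0.0175, the highest being that of Psmb8 after median-of-ratios rescaling. Without the 2 libraries farthest from the median of the B cell sum, r as deposited was 0.95 for Psmb10 and 0.96 for Psmb8. Within run 1, r as deposited was 0.94 for Psmb10 and 0.95 for Psmb8. Within run 1 after median-of-ratios rescaling the relations did not pass, with r = 0.71 (permutation adjusted p = 0.108) for Psmb10 and 0.51 (permutation adjusted p = 0.342) for Psmb8. The B cell sum had a median of 724 TPM in HFD+L-NAME+NO2-OA, 786 TPM in HFD+L-NAME and 967 TPM in chow libraries, and its part in the differences of Psmb8 and Psmb10 was not tested. The T cell sum had medians of 244 TPM in HFD+L-NAME+NO2-OA, 161 TPM in HFD+L-NAME and 447 TPM in chow libraries. Nlrc5 followed it with r = 0.85 and rho = 0.90 as deposited (permutation adjusted p = 0.000229 and 0.0004). That relation did not pass after median-of-ratios rescaling (r = 0.57, permutation adjusted p = 0.114), where r was 0.23 without the 2 libraries farthest from the median.

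**Figure D5:**
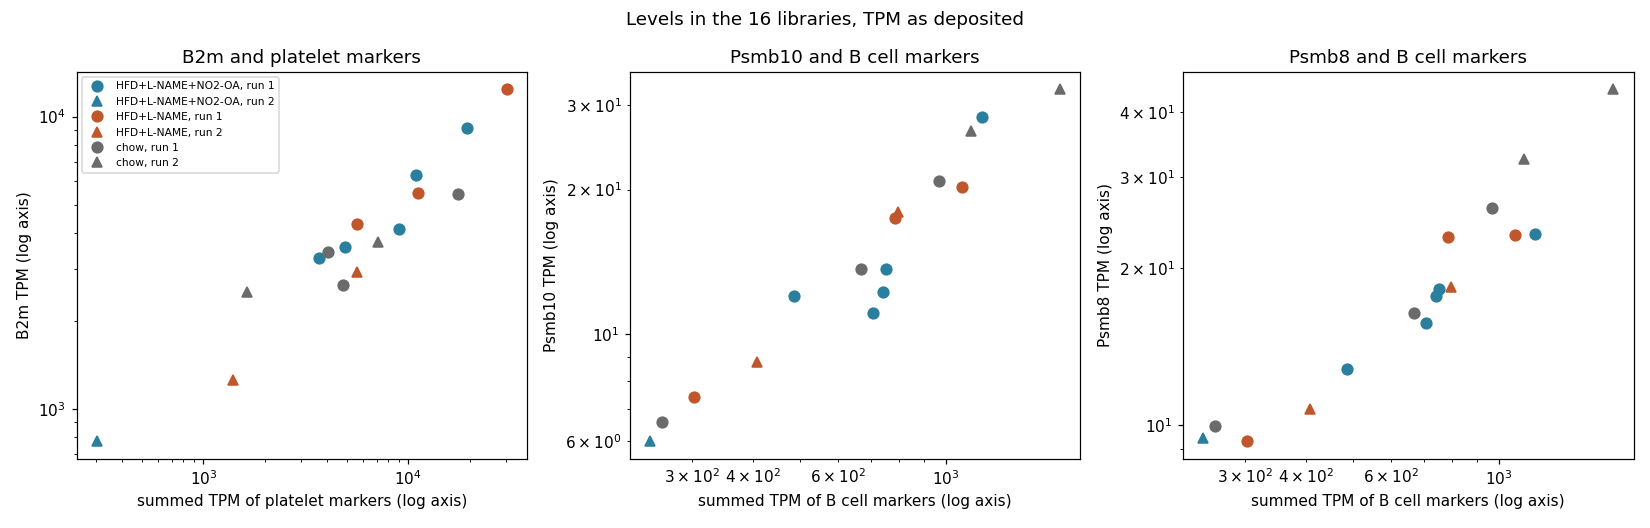
B2m against the summed platelet markers, and Psmb10 and Psmb8 against the summed B cell markers, in TPM on log axes for the 16 libraries, coloured by group, with circles for run 1 and triangles for run 2. Pearson r over the 16 libraries is 0.96, 0.96 and 0.95 as deposited, and the groups overlap on each axis.

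Outside the 10 genes, those most like their mean over libraries were chosen by Pearson r with the mean z score on the protein-coding scale, among 4890 protein-coding genes of at least 10 TPM. The 8 were Aup1, Ap1m1, Cr1l, Tmem234, Ctnnbl1, Ube2q1, Rab35 and Znrf2, with r from 0.97 to 0.98, and from 0.37 (Znrf2) to 0.83 (Tmem234) after median-of-ratios rescaling. H2-T24, a non-classical class I gene singled out after its values were seen, followed B2m with r = 0.97, 0.96 and 0.93 on the deposited, median-of-ratios and protein-coding scales. At least 12 other genes followed B2m more closely by the lowest r over the 3 scalings, led by Esd (0.96), Rtn3 (0.96) and Cox5a (0.96). H2-T24 ranged from 8.89 TPM in HFD+L-NAME+NO2-OA library 2 to 265 TPM in HFD+L-NAME library 3, the same libraries as for B2m.

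Of 78 genes on 7 lists around the pathway, 74 were tested and 0 were called by limma in any comparison. At an unadjusted p below 0.05 limma had 1 in HFD+L-NAME libraries against chow libraries, 3 in HFD+L-NAME+NO2-OA libraries against HFD+L-NAME libraries and 1 in HFD+L-NAME+NO2-OA libraries against chow libraries, against 2.93%, 0.947% and 2.8% of all genes. In the same comparisons limma-voom had 4, 8 and 9 with 0 called, against 4.03%, 2.58% and 5.07% of all genes.

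In HFD+L-NAME libraries against chow libraries, 11 of 12 other class I heavy chains were below 0 with a median of -0.47, and the lowest p-values were those of Cd1d1 (-0.56), H2-Q4 (-0.61), H2-Q7 (-0.58) and H2-Q10 (-0.51). H2-Q6 and H2-Q7 share 5.99% and 5.90% of their 150-base stretches with other genes, so their values are uncertain. Peptide loading and trimming genes (9 tested) had a median of -0.25, with Tapbpl, a tapasin-like editor, at -0.50 and the aminopeptidase Erap1 at -0.36. The proteasome activators Psme1 and Psme2, caps that interferon induces, were at -0.33 and -0.53, and the list of 4 had a median of -0.27. The 3 constitutive catalytic subunits had a median of -0.36 and the 11 other core subunits of -0.29, with Psma4 at -0.54. Regulators and interferon receptors (19) had a median of -0.37, with the class II transactivator Ciita at -0.61, Rfxank at -0.56 and Ifngr1 at -0.58. These medians stand beside -0.29 over all genes. After median-of-ratios rescaling the median was below 0 for the heavy chains (-0.12) and the interferon gamma targets (-0.06) and above 0 for the other 5 lists, from 0.01 to 0.12.

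Interferon gamma targets, GTPases of the Gbp and Irg families, chemokines and feedback genes, had a median of -0.34 over 16 tested in HFD+L-NAME libraries against chow libraries, with Gbp8 at -0.93 ± 0.36 (unadjusted p = 0.0165, limma adjusted p = 0.816). In HFD+L-NAME+NO2-OA libraries against HFD+L-NAME libraries the same list had a median of 0.38, 14 of 16 above 0, beside a median of 0.08 over all genes. There Iigp1 (0.76 ± 0.28), Tgtp1 (0.88 ± 0.35) and Tgtp2 (0.77 ± 0.37) were below an unadjusted 0.05 in the limma fit, with limma adjusted p = 1.00 for each. Tgtp1, a GTPase of T cells and macrophages, averaged 8.74 ± 2.41 TPM with NO2-OA and 4.84 ± 3.16 TPM without, and its values and those of its near-identical paralog Tgtp2 are uncertain. Iigp1 averaged 1.95 ± 0.790 TPM (lowest 1.51) with NO2-OA and 0.807 ± 0.720 TPM (highest 1.90) without, and the groups overlapped. The 6 libraries with NO2-OA alone meet the filter of 1 TPM in 5 libraries for Iigp1. It thus lies near the floor, and its unadjusted p-values here are no support for a difference. After median-of-ratios rescaling 13 of 16 were above 0, the median was 0.25 beside -0.04 over all genes, and 7 of 16 had an unadjusted p below 0.05, against 3.38% of all genes. None of the 16 passed the adjusted threshold on that scale either, nor with limma-voom. Genes of this list can vary together, and Tgtp1 and Tgtp2 are both on it, so the 7 are not independent genes. The list was not counted within run 1 or with libraries left out. In HFD+L-NAME+NO2-OA libraries against chow libraries the list had a median of 0.05, and 0.27 after rescaling, and Iigp1 differed by 0.60 (unadjusted p = 0.0384, limma adjusted p = 0.977).

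The other lists in HFD+L-NAME+NO2-OA libraries against HFD+L-NAME libraries had medians of 0.23 (class I heavy chains), 0.02 (loading and trimming), 0.11 (activators), -0.05 (constitutive subunits), 0.04 (other core subunits) and 0.25 (regulators and receptors). In HFD+L-NAME+NO2-OA libraries against chow libraries they had medians of -0.21, -0.24, -0.21, -0.33, -0.28 and -0.14 in that order, beside -0.20 over all genes. After median-of-ratios rescaling, loading and trimming, activators and other core subunits turned to medians below 0 in the first of these comparisons (-0.12, -0.05 and -0.12). Heavy chains, activators and regulators turned to medians above 0 in the second (0.03, 0.02 and 0.09).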

How the data were processed

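Total RNA of 16 libraries from frozen and thawed mouse PBMCs was sequenced from random-primed, depleted libraries with paired reads of 150 bases, per the labels' protocols. Per the submitters' processing notes the authors used bcl2fastq, Trim Galore, HISAT2 and featureCounts and named the builds mm39 and hg38, with versions and annotation not given in the sources used here. The deposited values are TPM, which the authors computed per gene, and each library sums to 1000000. TPM sets each gene against everything else in its library, so a library rich in 1 RNA has lower values elsewhere. Whole reads were recovered from the TPM steps for 100.0% of 32629 detected genes (tolerance 0.001) and served as an alternative only.

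Genes with at least 1 TPM in at least 5 libraries (16365) were tested on log2(TPM + 1) with limma 3.58.1 (R 4.3.3), a variance trend, 3 groups in 1 fit and Benjamini-Hochberg adjustment over all tested genes. Fold changes on this scale understate changes of low genes. Ratios were compared by exact two-sided permutation tests, adjusted over 15. Relations over libraries used 100000 permutations. The tests were checked on simulated data. Members, gene lists and tests were chosen with earlier results of these data known. The genes named are all 10 members, at most 4 genes of each list by smallest unadjusted p, and the 8 genes most like the members. H2-T24, H2-Q6, the genes that follow B2m and the marker genes with values were named outside this rule, after their values were seen. GENCODE M21 (GRCm38) gave gene types and chromosomes, and RefSeq (GRCm38.p6) promoters and gene order, for names, order and the printed sequences only, since the build differs from that named by the authors. Hbb-bs, a listed erythroid marker, had no value under that symbol. A further listed B cell marker is not reported here and was left out of the B cell sum. Alternatives were other pseudocounts, filters, scalings, covariates, fits, library subsets and leaving out each library.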

Additional observations from a re-analysis of the deposited data

How the results depend on the processing

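None of 680 log2 differences of the 10 genes, taken over all alternative settings and comparisons, passed an adjusted 0.05 (lowest limma adjusted p 0.478), and none of 235 ratio differences did (lowest exact permutation adjusted p 0.0714), while 88 and 24 of these values had the opposite sign. The direction of these uncalled differences therefore depends on the setting. The cause was not tested. The number of genes called among all tested in HFD+L-NAME libraries against chow libraries was 0 without the filter on low values, 0 after median-of-ratios rescaling, 0 after protein-coding rescaling, 4 with only the compared groups fitted, 0 without the 3 libraries under 25% protein-coding TPM, 2 without the 4 libraries with Prg4, 2 within run 1 and 0 with limma-voom. The number of genes called among all tested in HFD+L-NAME+NO2-OA libraries against HFD+L-NAME libraries was 2 with a pseudocount of 0.1, 0 after median-of-ratios rescaling, 0 after protein-coding rescaling, 0 without the 3 libraries under 25% protein-coding TPM, 2 without the 4 libraries with Prg4, 3 within run 1, 2 with run as a covariate and 0 with limma-voom. The number of genes called among all tested in HFD+L-NAME+NO2-OA libraries against chow libraries was 1 within run 1. For HFD+L-NAME libraries against chow libraries, log2 differences of opposite sign were as follows. After median-of-ratios rescaling they were 0.24 for H2-D1, 0.016 for Psmb10 and 0.18 for Tapbp. Without the 4 libraries with Prg4 they were 0.36 for H2-D1, 0.023 for H2-K1, 0.15 for Psmb10, 0.066 for Psmb8, 0.25 for Psmb9, 0.031 for Tap1, 0.14 for Tap2 and 0.38 for Tapbp. Within run 1 they were 0.36 for H2-D1, 0.023 for H2-K1, 0.15 for Psmb10, 0.066 for Psmb8, 0.25 for Psmb9, 0.031 for Tap1, 0.14 for Tap2 and 0.38 for Tapbp. With limma-voom they were 0.25 for H2-D1 and 0.19 for Tapbp. For HFD+L-NAME+NO2-OA libraries against HFD+L-NAME libraries, log2 differences of opposite sign were as follows. After median-of-ratios rescaling they were -0.13 for H2-D1. After protein-coding rescaling they were -0.094 for H2-D1. Without the 4 libraries with Prg4 they were -0.35 for H2-D1, -0.13 for H2-K1, -0.035 for Psmb9 and -0.10 for Tap2. Within run 1 they were -0.16 for H2-D1, -0.0078 for H2-K1, 0.059 for Psmb10 and 0.0078 for Psmb8. With limma-voom they were -0.15 for H2-D1. With run as a covariate they were -0.078 for H2-D1 and 0.0092 for Psmb8. Without the 3 libraries under 25% protein-coding TPM they were -0.070 for H2-D1. For HFD+L-NAME+NO2-OA libraries against chow libraries, log2 differences of opposite sign were as follows. After median-of-ratios rescaling they were 0.11 for H2-D1, 0.060 for Nlrc5 and 0.040 for Tap1. After protein-coding rescaling they were -0.041 for B2m. Without the 4 libraries with Prg4 they were -0.033 for B2m, 0.014 for H2-D1, 0.10 for Nlrc5, 0.013 for Psmb10, 0.21 for Psmb9, 0.14 for Tap1, 0.045 for Tap2 and 0.073 for Tapbp. Within run 1 they were 0.20 for H2-D1, 0.015 for H2-K1, 0.10 for Nlrc5, 0.20 for Psmb10, 0.074 for Psmb8, 0.40 for Psmb9, 0.32 for Tap1, 0.23 for Tap2 and 0.23 for Tapbp. With limma-voom they were 0.10 for H2-D1, 0.067 for Nlrc5 and 0.042 for Tap1. With run as a covariate they were -0.26 for B2m. Ratios changed sign in these settings. Psmb9/Psmb6 in HFD+L-NAME libraries against chow libraries was 0.16 without the 4 libraries with Prg4 and 0.16 within run 1. Psmb10/Psmb7 in HFD+L-NAME libraries against chow libraries was -0.0098 with 1 TPM added to both genes and -0.21 without the 3 libraries under 25% protein-coding TPM. Psmb10/Psmb7 in HFD+L-NAME+NO2-OA libraries against HFD+L-NAME libraries was 0.055 without the 4 libraries with Prg4 and 0.19 within run 1. Psmb10/Psmb7 in HFD+L-NAME+NO2-OA libraries against chow libraries was 0.13 without the 4 libraries with Prg4 and 0.27 within run 1. Leaving out each library in turn gave, in HFD+L-NAME libraries against chow libraries, ranges of 0 to 2 for the number of genes called, -0.16 to 0.66 for B2m, -0.37 to 0.13 for H2-D1, -0.26 to 0.23 for Psmb10/Psmb7 and -0.44 to 0.10 for Psmb9/Psmb6. Leaving out each library in turn gave, in HFD+L-NAME+NO2-OA libraries against HFD+L-NAME libraries, ranges of 0 to 4 for the number of genes called, -0.59 to 0.27 for B2m, -0.26 to 0.23 for H2-D1, -0.082 to 0.44 for H2-K1, -0.30 to 0.11 for Psmb10, -0.20 to 0.11 for Psmb8, -0.11 to 0.40 for Psmb9, -0.13 to 0.35 for Tap2, -0.27 to 0.10 for Tapbp, -0.35 to 0.054 for Psmb10/Psmb7 and -0.23 to 0.26 for Psmb8/Psmb5. Leaving out each library in turn gave, in HFD+L-NAME+NO2-OA libraries against chow libraries, ranges of 0 to 1 for the number of genes called, -0.19 to 0.52 for B2m, -0.32 to 0.058 for H2-D1, -0.39 to 0.093 for Psmb10/Psmb7 and -0.12 to 0.40 for Psmb9/Psmb6. With the replicate number as a block the genes called were 1, 1 and 0 in the 3 comparisons and no call of the 10 genes or the ratios changed. Libraries with the same number did not deviate together (3 of 15 correlations over 0.1, from -0.51 to 0.51), so the numbers were not taken as pairs. Standard errors of 0.39 to 0.63 on the log2 scale limit what HFD+L-NAME libraries against chow libraries can show, and Psmb9, with 60 to 599 recovered reads, and Psmb10, with 78 to 426, rest on the fewest reads of the 10 genes.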
